A study of Mus musculus with 99 samples.

Results

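Midbrain dopamine neurons were followed here through 10 genes that such neurons use to make, move and break down dopamine or to hold their identity: Th, Ddc, Slc6a3, Slc18a2, Aldh1a1, Pitx3, Nr4a2, En1, Foxa2 and Lmx1b. The genes were chosen by name, and all 10 were found by their Ensembl identifiers among the 55335 identifiers of the count tables. The data were 99 RNA sequencing libraries, each made with the SMART-Seq v4 kit from 10 ng of total RNA of a punch of juvenile mouse brain tissue. Of the 5 regions punched, 2 belong to the reward system, VTA (ventral tegmental area, where midbrain dopamine neurons lie) and NAc (nucleus accumbens, one of their targets), and the others were VBT (ventrobasal thalamus), S1 (somatosensory cortex) and PrL (prelimbic cortex). In the fentanyl groups, C57BL/6 dams drank water with 10 µg/ml fentanyl, an opioid, starting on embryonic day 0 and ending at weaning; in the water groups the drinking water held none. All sampled mice were labelled wildtype, and no other allele or agent is named. Each region had female and male mice of both treatments, 5 libraries in each of these 20 groups except for 4 in S1 male water. The labels name neither litter nor animal, so that the p-values below measure only the spread between these libraries, which may be in part technical.

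Dopamine is made from tyrosine by tyrosine hydroxylase and aromatic amino acid decarboxylase, is packed into vesicles by the vesicular monoamine transporter and is taken back up from outside the cell by the dopamine transporter. The decarboxylase and the vesicular transporter are also used by serotonin and noradrenaline neurons, whereas the dopamine transporter is a hallmark of dopamine neurons. A set of transcription factors, among them Nr4a2, Pitx3, En1, Foxa2 and Lmx1b, sets up this identity in the embryonic midbrain and helps to keep it in the adult, and En1 and Lmx1b also act in the serotonin neurons that lie behind the VTA.

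The DNA just before the starts of Th, Ddc, Slc6a3 and Slc18a2 is shown because the levels of these 4 genes formed 2 tight pairs across VTA punches, Th with Slc6a3 and Ddc with Slc18a2 (below). Each sequence is the 250 bases before the RefSeq start, 5′ to 3′ on the strand of the gene, in build GRCm38.p6. These are chr7:142899996-142900245 (minus strand) for Th, chr11:11898145-11898394 (minus strand) for the upstream of 2 Ddc starts, chr13:73536497-73536746 (plus strand) for Slc6a3 and chr19:59260628-59260877 (plus strand) for Slc18a2. Capitals mark the only matches to the motifs searched.
Th: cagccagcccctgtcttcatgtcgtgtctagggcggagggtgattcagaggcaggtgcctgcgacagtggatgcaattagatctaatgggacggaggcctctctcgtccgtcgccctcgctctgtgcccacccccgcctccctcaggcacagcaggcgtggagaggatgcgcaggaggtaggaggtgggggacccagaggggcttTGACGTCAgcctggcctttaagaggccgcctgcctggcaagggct
Ddc: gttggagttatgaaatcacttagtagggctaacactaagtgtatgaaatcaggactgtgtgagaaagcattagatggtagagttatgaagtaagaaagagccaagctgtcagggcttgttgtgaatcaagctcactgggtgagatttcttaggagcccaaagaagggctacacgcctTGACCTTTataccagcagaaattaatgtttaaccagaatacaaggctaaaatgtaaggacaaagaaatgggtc
Slc6a3: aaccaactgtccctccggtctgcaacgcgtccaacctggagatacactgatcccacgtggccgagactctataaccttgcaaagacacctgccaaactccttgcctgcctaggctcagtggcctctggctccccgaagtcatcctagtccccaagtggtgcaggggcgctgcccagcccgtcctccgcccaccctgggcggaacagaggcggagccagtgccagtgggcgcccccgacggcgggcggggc
Slc18a2: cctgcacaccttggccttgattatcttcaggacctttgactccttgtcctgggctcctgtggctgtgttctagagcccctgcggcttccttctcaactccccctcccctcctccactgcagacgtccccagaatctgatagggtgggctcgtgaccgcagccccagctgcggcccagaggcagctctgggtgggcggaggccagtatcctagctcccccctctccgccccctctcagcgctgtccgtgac
Both strands were searched for AAAGGTCA, the element bound by Nr4a2, for TAATCC, the site of Pitx factors, for the forkhead cores TGTTTAC and TGTTTGC, for the homeodomain core TAATTA and for TGACGTCA, the cyclic AMP response element. Of 32851 RefSeq promoter windows of the same length, these were found in 1.34%, 6.25%, 3.17%, 4.30%, 4.84% and 1.55%, in that order. The Th window held TGACGTCA, from 45 to 38 bases before the start. In the Ddc window AAAGGTCA lay on the other strand and reads TGACCTTT as printed, from 73 to 66 bases before the start. The 2 matches overlap no other match. The windows of Slc6a3, of Slc18a2 and of the second Ddc start (chr11:11890409-11890658), and those of the other 6 members, held none of these letters, which says nothing of the factors themselves.

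The libraries held between 16515545 counts (the VTA library left out below) and 52069639 counts (a VBT library) in genes, and levels are given as CPM, counts divided by this total and multiplied by 1000000. One VTA library, the third of the male water group, had 6333 genes with a count and stood apart in its markers: Th was at 0.0606 CPM (1 count) and Slc6a3, Pitx3, Nr4a2, En1, Foxa2 and Lmx1b were at 0, while Ddc was at 64.1, Slc18a2 at 142 and Aldh1a1 at 209 CPM, and thalamus markers (Tcf7l2, Prkcd, Tnnt1 and Ntng1) summed to 1191 CPM against 73.1 to 171 in the other VTA libraries. It was left out, which leaves 19 VTA libraries. These split by a technical measure, the rank correlation across genes between the GC content of a gene's exons and the library's deviation from the VTA mean: it was 0.506 to 0.648 in 6 libraries (all 4 of male water, and 2 of female water) and -0.55 to 0.00197 in the other 13. In 3 PrL water libraries, markers of the olfactory bulb (Eomes, Doc2g and Cdhr1), a structure with its own Th-expressing neurons, summed to 29.8, 163 and 313 CPM, against at most 8.60 in the other 17.

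Each member was highest on average in VTA among water libraries (9 in VTA and S1, 10 in each other region). Tested with edgeR's quasi-likelihood test in one fit across 21468 genes, all 10 members were higher in VTA than in VBT (Benjamini-Hochberg adjusted p under 0.05, the threshold used throughout), than in PrL and than in NAc, and 9 of 10 were higher in VTA than in S1, the exception being Nr4a2. The Nr4a2 call against NAc ended when VTA male water 3, left out because few genes were detected in it, was kept (log2 difference 0.83, edgeR adjusted p = 0.103). Of all genes tested, 27.4% were called higher in VTA than in VBT, 35.1% than in PrL, 34.7% than in NAc and 36% than in S1, and 52.5%, 66.5%, 64.8% and 67.6% were called in either direction. Among the other 4 regions, 6 members passed between VBT and S1 (68% of all genes), 5 between VBT and PrL (68.4%), 6 between VBT and NAc (67.8%), 6 between S1 and PrL (37.3%), 6 between S1 and NAc (53.3%) and 3 between PrL and NAc (50.3%). The members' median log2 difference was 7.02 against VBT, 8.32 against S1, 7.84 against PrL and 7.67 against NAc, where the median of all genes lay between 0.02 and 0.05. All 10 were detected in each of the 19 VTA libraries used, in which Th ranged from 23.8 to 398.5 CPM. In bulk tissue, fewer cells of a type and less RNA per cell cannot be told apart.

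**Figure D1:**
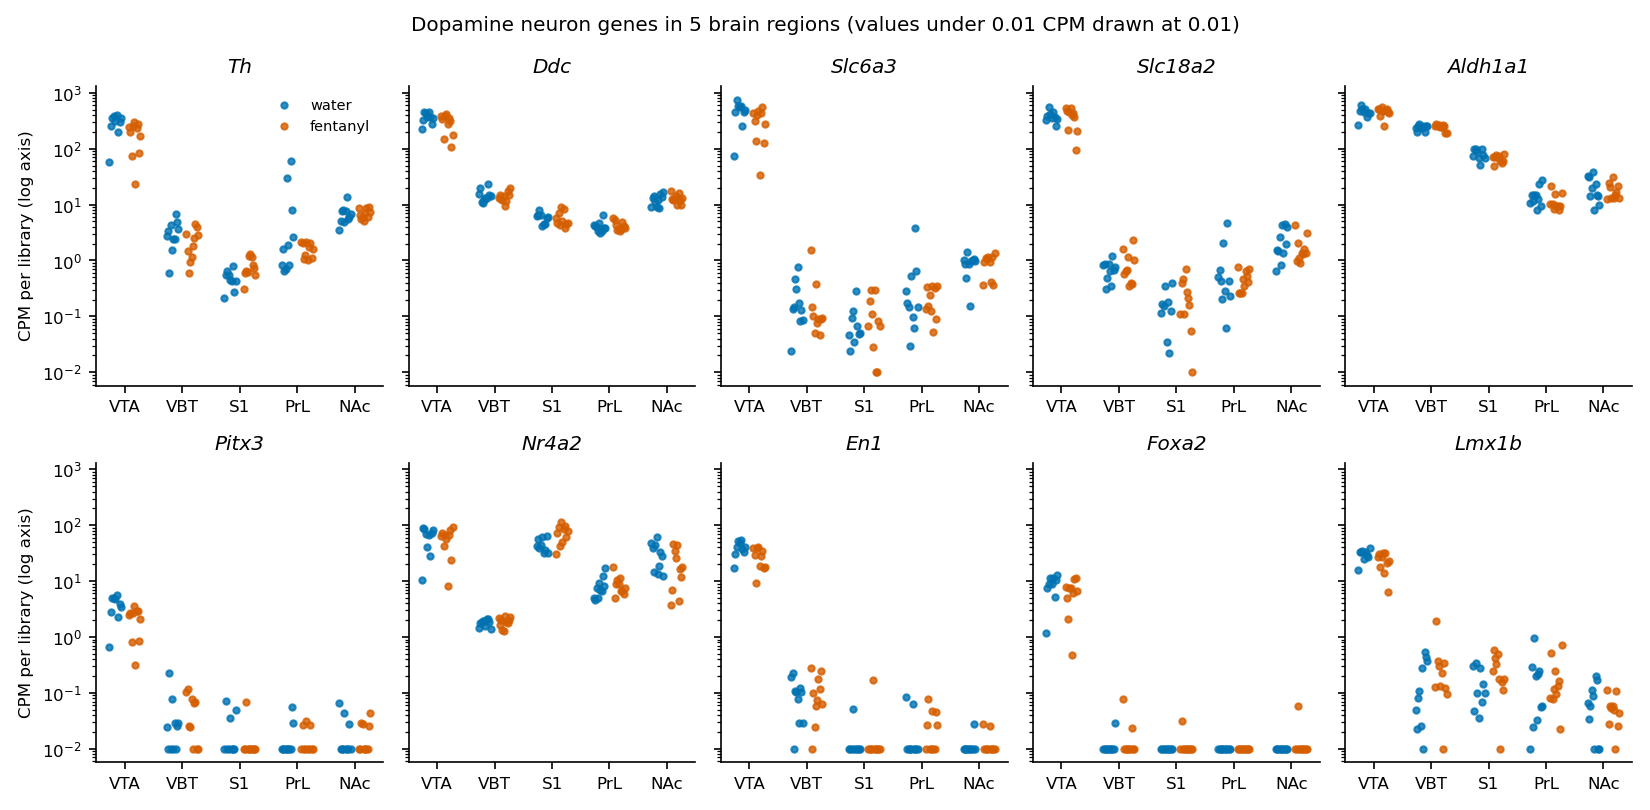
Level of the 10 members in every library used, by region (CPM, log axis; values under 0.01 CPM are drawn at 0.01; blue points are water libraries, orange points fentanyl libraries). The VTA points lie above those of every other region for Ddc, Slc6a3, Slc18a2, Pitx3, En1, Foxa2 and Lmx1b, and overlap with another region for Th, Aldh1a1 and Nr4a2.

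Th encodes tyrosine hydroxylase, the rate-limiting enzyme of dopamine synthesis (chr7:142892752-142931128, minus strand, GRCm38). In water libraries Th averaged 291 CPM in VTA, 10.8 in PrL, 6.85 in NAc, 3.28 in VBT and 0.484 in S1. The log2 difference between VTA and PrL was 4.81 (SE 0.59, edgeR adjusted p = 3.3e-09). PrL and NAc did not differ beyond their spread (log2 difference 0.61, SE 0.55, edgeR adjusted p = 0.367), nor did NAc and VBT (0.98, SE 0.59, adjusted p = 0.138), whereas VBT was above S1 (2.74, SE 0.83, adjusted p = 0.00376). The place of PrL in this order rested on the 3 libraries with high olfactory bulb markers. Th stood at 60.9 CPM in male water 3, 29.5 in female water 5 and 7.93 in male water 4, and in the other 17 PrL libraries between 0.650 and 2.69 (mean 1.49 ± 0.604 SD). Without them PrL was below NAc (log2 difference -2.25, edgeR adjusted p = 5.05e-06) and below VBT (VBT minus PrL 1.27, adjusted p = 0.004855), and VTA exceeded PrL by 7.67. The part of bulb tissue in these values was not tested.

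Ddc encodes aromatic amino acid decarboxylase, which turns L-DOPA into dopamine (chr11:11814101-11898144, minus strand). It averaged 362 CPM in VTA water libraries and was next highest in VBT, at 14.6, 24.7 times lower. NAc followed at 12.4, S1 at 5.83 and PrL at 4.11, and each region differed from its neighbour in this order (the largest edgeR adjusted p was 0.0132, between VBT and NAc). The lowest VTA library, at 107.5 CPM, was still above the highest library of the other regions, at 23.0.

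Slc6a3 encodes the dopamine transporter of the cell surface (chr13:73536747-73578672, plus strand) and had one of the widest gaps between regions. It averaged 466 CPM in VTA and 0.888 in NAc, the next highest, a 525-fold ratio. The means of PrL, VBT and S1 were 0.590, 0.232 and 0.0862 CPM, and no neighbours among NAc, PrL, VBT and S1 differed beyond their spread (edgeR adjusted p = 0.285, 0.21 and 0.183). Without the 3 PrL libraries named above, NAc exceeded PrL (PrL minus NAc -2.66, edgeR adjusted p = 0.00137).

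Slc18a2 encodes VMAT2, the vesicular monoamine transporter of neurons (chr19:59260896-59296012, plus strand). It averaged 385 CPM in VTA and 2.33 in NAc, 166 times lower. NAc was above PrL (0.951 CPM; log2 difference 1.03, SE 0.39, edgeR adjusted p = 0.0273), a call that ended when any 1 of 6 libraries was left out. PrL did not differ from VBT beyond the spread (0.695 CPM, adjusted p = 0.355), and VBT was above S1 (0.172 CPM, adjusted p = 0.00731). Without the 3 PrL libraries the order of PrL and VBT turned (VBT minus PrL 1.20, edgeR adjusted p = 0.0164). Between PrL and NAc, 3 of 10 members passed the test with all libraries (50.3% of all genes) and 5 without these 3 (49.7%).

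Aldh1a1 encodes a cytosolic aldehyde dehydrogenase, which marks a part of the midbrain dopamine neurons and clears the aldehyde made from dopamine (chr19:20492715-20643465, plus strand). After Nr4a2, it had the smallest ratio of VTA to the region with the next highest mean. The mean was 450 CPM in VTA and 241 in VBT, a ratio of 1.86 (log2 difference 0.75, SE 0.19, edgeR adjusted p = 8.98e-04). S1 followed at 80.9, NAc at 20.6 and PrL at 14.7, and only NAc and PrL did not differ beyond their spread (adjusted p = 0.153). Single libraries overlapped: the lowest VTA library held 255.8 CPM and the highest VBT library 278.

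Among the transcription factors, Pitx3 (chr19:46135685-46148326, minus strand), a homeodomain factor that dopamine neurons of the midbrain need, was low everywhere. It averaged 3.72 CPM in VTA, and 0.0412, 0.0174, 0.0139 and 0.00851 in VBT, S1, NAc and PrL. A library held 0 to 11 counts of Pitx3 in VBT, at most 3 in S1 and at most 2 in NAc and PrL. None of these 4 was called against its neighbour (the smallest edgeR adjusted p was 0.35), which such counts are too few to decide. En1, the engrailed homeodomain factor (chr1:120602418-120607992, plus strand), averaged 39.5 CPM in VTA and 0.0992 in VBT, 399 times lower. In VBT 3 counts stand for 0.0576 to 0.123 CPM, so that this mean lies near that floor and the ratio is uncertain. VBT was called above PrL for En1 (log2 difference 2.56, SE 0.73, edgeR adjusted p = 0.00223), at 0 to 11 counts a library in VBT and 0 to 3 in PrL. The means were 0.0149 CPM in PrL, 0.00563 in S1 and 0.00281 in NAc. In PrL 3 counts stand for 0.066 to 0.0966 CPM, above the mean there, so that the size of this difference is uncertain. Foxa2, a forkhead factor of the floor plate (chr2:148042877-148046969, minus strand), averaged 8.70 CPM in VTA and 0.00289 in VBT. It was at 0 in every water library of S1, PrL and NAc, so that with a floor of 3 counts in the shallowest water library of each region VTA was at least 81.6-fold, 90.1-fold and 84.5-fold higher. Lmx1b, a LIM homeodomain factor (chr2:33560965-33640511, minus strand), averaged 29.9 CPM in VTA and 0.208 in PrL, 144 times lower, and 0.192, 0.1585 and 0.0729 in VBT, S1 and NAc, with no difference beyond the spread among the other 4 regions in order (adjusted p from 0.171 to 0.876).

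Nr4a2, an orphan nuclear receptor also called Nurr1 (chr2:57106830-57124003, minus strand), was the exception in its pattern. It averaged 61.1 CPM in VTA and 45.4 in S1, which did not differ beyond their spread (log2 difference 0.35, SE 0.27, edgeR adjusted p = 0.251). NAc followed at 31.2 (S1 minus NAc 0.67, adjusted p = 0.0306), PrL at 8.37 and VBT at 1.79. Over all libraries used, S1 reached 114 CPM, above the highest VTA library at 93.1. Nr4a2 also marks neurons of the claustrum and the deepest cortical layer.

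Counts per gene grow with transcript length, so levels of different genes are compared here only per kilobase of exon. Over the 19 VTA libraries Slc6a3 had 112 ± 56.5 CPM per kb (SD), Th 99.9 ± 47.7, Aldh1a1 92.3 ± 17.99, Ddc 72.6 ± 22.3 and Slc18a2 72.2 ± 23.0. These 5 enzymes and transporters lay within 1 SD of Slc6a3 in this scale. The transcription factors were lower: Nr4a2 had 14.6 ± 6.48 CPM per kb, En1 12.7 ± 4.87, Lmx1b 5.41 ± 1.69, Foxa2 3.19 ± 1.52 and Pitx3 1.90 ± 1.01. Several members overlap genes on the other strand (1700042O10Rik at Ddc, Gm29261 at Slc18a2, Gm6684 and C730002L08Rik at Aldh1a1, Elovl3 at Pitx3, Gm38011 at Lmx1b), and whether counting used strand is not given in the sources used here, so that reads of these pairs may not be separated.

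The members varied widely from punch to punch in VTA. Across the 19 libraries, the highest CPM was 26.8 times the lowest for Foxa2, 22.7 times for Slc6a3, 17.6 times for Pitx3, 16.7 times for Th, 11.5 times for Nr4a2, 6.00 times for Slc18a2, 5.97 times for Lmx1b, 5.84 times for En1, 4.19 times for Ddc and 2.34 times for Aldh1a1. The same 4 libraries were lowest in Th, Slc6a3 and Pitx3: male fentanyl 1 (Th at 23.8 CPM), female water 1 (57.0), female fentanyl 3 (73.3) and male fentanyl 4 (85.3). No other VTA library was below 169.6 CPM of Th. They came from 3 of the 4 groups, and 3 of them were fentanyl libraries.

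Whether the members rose and fell together across punches was measured with Pearson's r and Spearman's rho of log2(CPM + 1), centred on the mean of each of the 4 groups, with permutation tests of 100000 draws and Benjamini-Hochberg adjustment over the 45 pairs. Of the pairs, 34 passed by r and the median r was 0.726. As a description, 75.6% of the member pairs had an r of at least 0.5, beside 11.1% of all pairs of the 15529 genes with a mean of at least 1 CPM in VTA, whose median r was 0.03. All these pairs share the same 19 libraries. The tightest pair was Th with Slc6a3, at r = 0.990 (permutation test p = 1e-05, the smallest these draws can give, adjusted p = 9e-05) and rho = 0.988. It was 0.975 without the 2 libraries farthest from the median, and 0.992 and 0.958 within the 13 and the 6 libraries split by GC trend. Per kilobase of exon, the Slc6a3 level was 0.878 to 1.43 times that of Th in all 19 libraries, while Th itself ranged 16.7-fold.

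Pitx3 followed the same course. Its r was 0.959 with Th (permutation test adjusted p = 9e-05, rho 0.967, 0.945 without the 2 farthest libraries) and 0.952 with Slc6a3 (rho 0.956, 0.929 without them). Per kilobase of exon, the Pitx3 level was between 0.0155 and 0.0231 times that of Th in each of the 19 libraries. Th, Slc6a3 and Pitx3 each passed with 8 of the 9 other members, and En1 with 9 of 9. The number of passing pairs depended on single libraries: it was 24 without female fentanyl 3, 25 without female water 1 and 43 without male fentanyl 1.

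**Figure D2:**
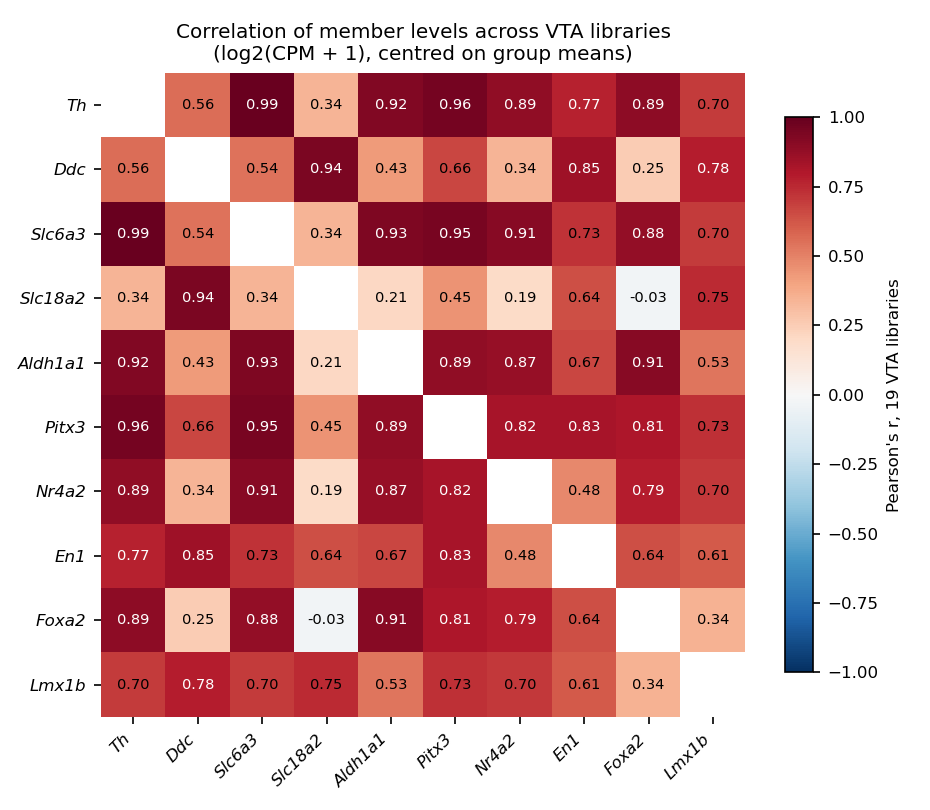
Pearson's r of each pair of members across the 19 VTA libraries, on log2(CPM + 1) centred on group means (colour scale from -1 to 1, value printed in each cell). Th, Slc6a3 and Pitx3 form one block with r of 0.952 to 0.990, and Slc18a2 with Ddc reaches 0.942 while Slc18a2 with Foxa2 is -0.03.

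Ddc and Slc18a2, the enzyme and the transporter that serotonin and noradrenaline neurons share, formed the other pair. Their r was 0.942 (permutation test adjusted p = 9e-05, rho 0.905, 0.885 without the 2 farthest libraries). Slc18a2 passed with 3 of its 9 partners, and with 8 without male fentanyl 1, 2 without male fentanyl 4 and 1 without female fentanyl 3. The 3 were Ddc, Lmx1b (r = 0.748, adjusted p = 0.0118, but rho 0.458, adjusted p = 0.137) and En1 (r = 0.643, adjusted p = 0.00349). Th with Slc18a2 did not pass, at r = 0.339 (permutation test p = 0.312, adjusted p = 0.357, rho 0.453), and rose to 0.718 without the 2 farthest libraries. One library decided this value: leaving out male fentanyl 1 gave 0.687. Th with Ddc passed at r = 0.561 (adjusted p = 0.0447, rho 0.742), which ended when any 1 of 12 libraries was left out and was 0.843 without male fentanyl 1.

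The libraries in which the pairs parted can be read from the ratios of their levels per kilobase of exon. In male fentanyl 1, Slc18a2 was 7.46 times and Ddc 6.06 times Th, and in female water 1 these ratios were 2.615 and 2.09. In the other 17 libraries Slc18a2 was 0.389 to 1.33 times and Ddc 0.49 to 1.098 times Th. These were the 2 libraries with the least Th, and their Slc18a2 stood at 392.5 and 329 CPM, the latter the lowest of the female water group.

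Beside these ratios stood the markers of the neighbouring monoamine neurons. The serotonin neuron markers Tph2, Slc6a4, Fev and Htr1a, all 4 detected in every VTA library used, summed to 934 CPM in male fentanyl 1, 659 in male water 2, and 506 in female water 1, and to 39.9, 41.0, 71.6 and 83.0 in the 4 lowest libraries. By group the sum ranged from 240 to 514 in female fentanyl, 223 to 506 in female water, 39.9 to 934 in male fentanyl and 71.6 to 659 in male water. Htr1a also averaged 16.2, 22.1 and 14.3 CPM in S1, PrL and NAc. It was at least 22.0 CPM in each VTA library used, a large part of the lowest sums, while Tph2 ran from 2.48 to 618 CPM. The Slc18a2 to Th ratio was 0.849 in male water 2 and 0.802 in female fentanyl 5 (514 CPM), against 2.615 in female water 1 (506 CPM), so that a high sum did not always go with a high ratio. The noradrenaline neuron markers Dbh, Slc6a2 and Phox2a summed to 137.7 CPM in female water 1, 8.68 in female water 2 and at most 2.08 in the other 17, where Dbh was at 0 in 12 libraries. Across libraries the serotonin sum had r = 0.673 with Slc18a2 (permutation test p = 0.0211, adjusted p = 0.310 over 60 relations between members and marker sums, rho 0.663), so that it did not pass. The part of these neighbouring neurons in the levels of Ddc and Slc18a2 was not tested.

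**Figure D3:**
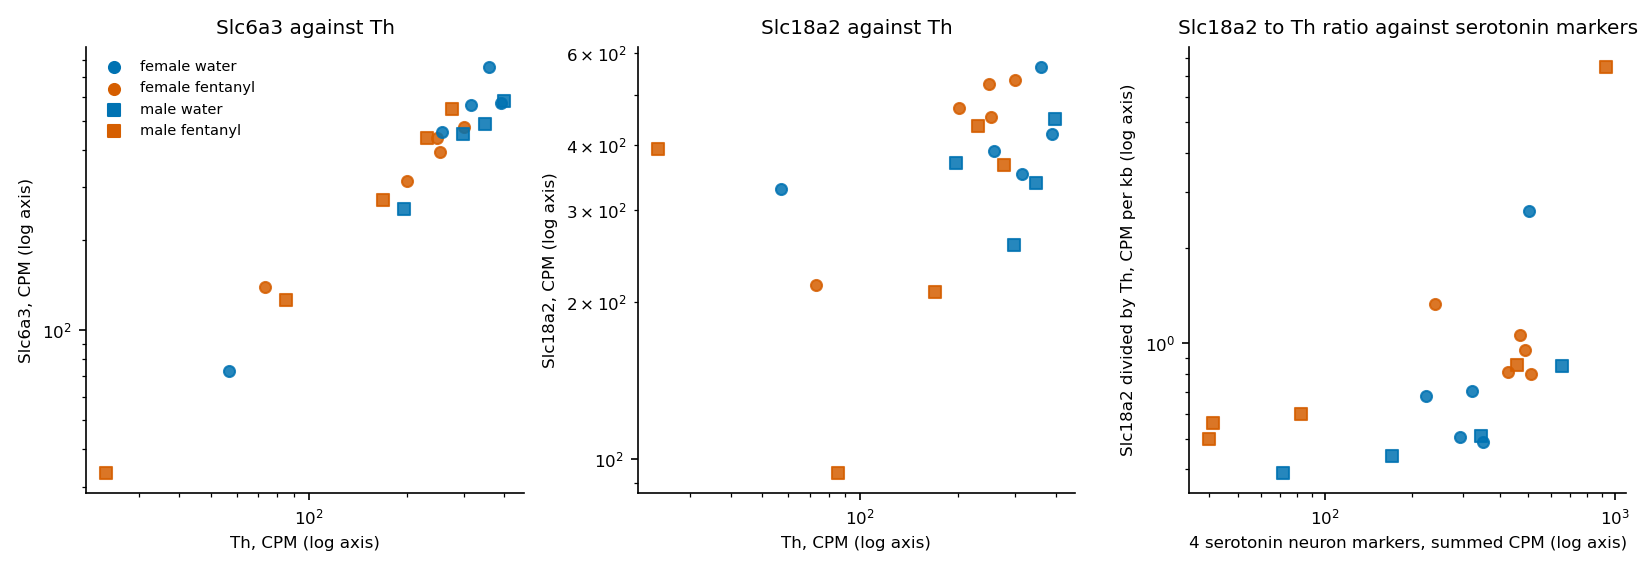
Slc6a3 against Th (left), Slc18a2 against Th (middle), and the ratio of Slc18a2 to Th against the summed serotonin neuron markers (right) in the 19 VTA libraries used (CPM, and CPM per kilobase of exon for the ratio; log axes; circles are females, squares males, blue water, orange fentanyl). Slc6a3 follows Th along one line, while Slc18a2 stays at 392.5 and 329 CPM in the 2 libraries with the least Th, and the ratio is highest, at 7.46, in the library with the highest marker sum, 934 CPM, and 0.849 in the next, male water 2, at 659 CPM.

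The forkhead factor parted from the rest in another library. Per kilobase of exon, Foxa2 was 0.0201 to 0.0392 times Th in 18 libraries and 0.135 times in male fentanyl 4, where Foxa2 stood at 11.6 CPM, the second highest value, although Th was at 85.3. The same library had the lowest Ddc (107.5 CPM), Slc18a2 (93.9) and Lmx1b (6.50) of all 19. Its summed markers of the red nucleus, interpeduncular nucleus and habenula (Pou4f1, Tac2 and Chat) were the highest, at 46.9 CPM against 6.70 to 22.3 in the others. Its level of Slc17a6, the glutamate neuron marker, was 490 CPM, where the highest was 578 in male fentanyl 5.

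Taken one against the mean of the other 9 as a description, Pitx3 had the highest r (0.958), followed by Th (0.946) and Slc6a3 (0.937). Aldh1a1 (0.846), En1 (0.825), Nr4a2 (0.792), Lmx1b (0.772), Foxa2 (0.719) and Ddc (0.702) came between, and Slc18a2 was lowest at 0.489. The 19 points share their punches, library preparations and total counts.

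The genes outside the 10 whose VTA pattern was most like the members' mean were ranked by Pearson's r over the same 19 libraries, among 15529 genes with a mean of at least 1 CPM, where the median r was 0.123 and the 95th percentile 0.69. The 10 highest were Syt17 (0.979), Drd2 (0.975), Cnpy1 (0.974), Ntf3 (0.969), Ntn1 (0.968), Npbwr1 (0.966), Cadps2 (0.964), Slc39a4 (0.964), Fam167a (0.961) and Trpc6 (0.960). Drd2 encodes the D2 dopamine receptor, which is also the autoreceptor of dopamine neurons, and was at 43.2 CPM in VTA and 125.5 in NAc. Cnpy1 and Slc39a4 were at most 0.643 and 0.404 CPM on average in the 4 other regions, against 23.5 and 6.72 in VTA.

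Of lists of related genes, the 12 other genes high in midbrain dopamine neurons were mostly near the members: Ntsr1, the neurotensin receptor, had r = 0.953 with the members' mean, the nicotinic receptor subunits Chrna6 and Chrnb3 0.945 and 0.941, Gucy2c 0.941, Ret, a receptor of glial-derived neurotrophic factors, 0.927 and Slc10a4 0.922. Cck (0.693), Calb1 (0.613), Kcnj6 (0.568) and Sncg (0.212) were less so. Dlk1 was listed at 0 in every library used of all 5 regions, so that its level in VTA cannot be read here. Among 5 other transcription factors, En2 reached 0.856, Foxa1 0.819, Lmx1a 0.775, Otx2 0.726 and Sox6 0.416. The enzymes that make and recycle tetrahydrobiopterin, the cofactor of Th, spread from 0.885 for Pcbd1 to -0.19 for Qdpr, with Gch1, which makes the committed step, at 0.503, Spr at 0.402 and Pts at 0.292. Gchfr, the feedback regulator of Gch1, had -0.09. Of the breakdown enzymes, Aldh2 had 0.609, Maoa 0.272 and Maob 0.0725, and Dbh, the enzyme that turns dopamine into noradrenaline, -0.62, with its CPM carried by female water 1 at 44.2.

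None of the 10 members passed the test for fentanyl against water in VTA, in either sex. In females, edgeR called 0 of 19822 genes (0%; 2518 had an unadjusted p under 0.05, and DESeq2 called 88 genes), and in males 4355 genes (22%). The male count was 796 with a correction for GC content in each library, 42 with VTA male water 3 kept and 2660 without male water 4. With the sexes averaged 4580 genes passed (23.1%; 922 and 60 in the first 2 of these fits), and for the difference between the sexes 0 (0%; 2257 at an unadjusted p under 0.05). In males the 4 water libraries were among the 6 with the high GC trend and the 5 fentanyl libraries among the 13 with the low one, so that treatment and this trend cannot be told apart. The members' median log2 difference was -0.20 in females and -0.58 in males, beside -0.00 and 0.00 over all genes tested. In males 9 of 10 estimates were below 0, and in females 7 of 10.

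**Figure D4:**
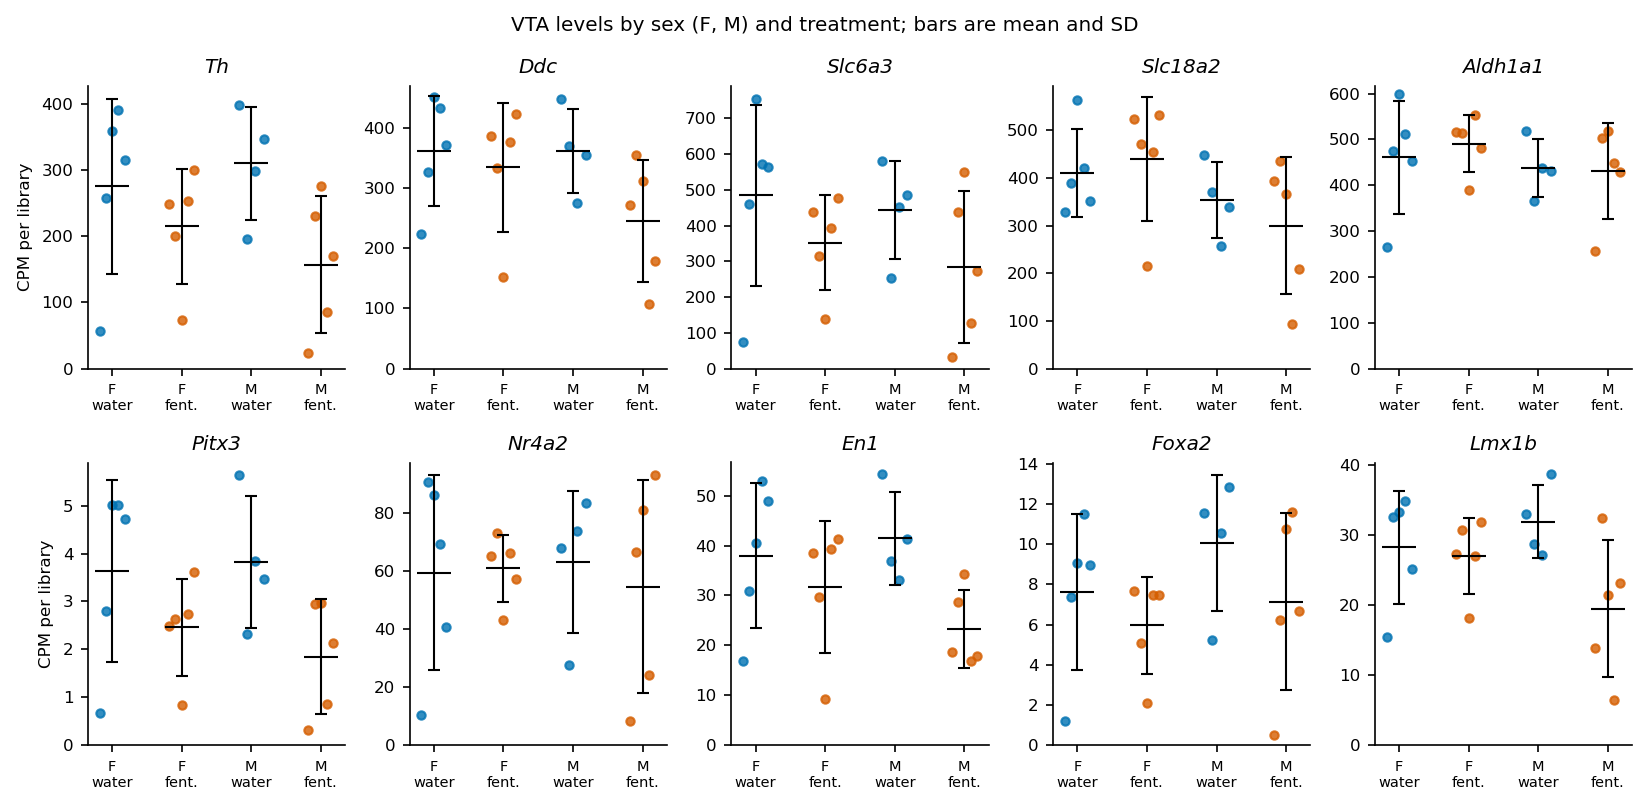
Level of each member in the VTA libraries used, by sex and treatment (CPM, axes from 0; each point is 1 library, black bars are the group mean and SD; 5 libraries a group, 4 in male water). The fentanyl and water points overlap in both sexes for all 10 members.

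Th in females was 248.7, 201, 73.3, 253.5 and 301 CPM in the fentanyl libraries and 57.0, 258, 359.8, 391 and 315.5 in the water libraries. The lowest water library lay below all fentanyl libraries, and the groups overlapped. Fentanyl minus water was -0.37 in log2 (SE 0.56, edgeR adjusted p = 0.814). In males Th was 23.8, 231, 277, 85.3 and 169.6 CPM with fentanyl and 398.5, 197, 298.5 and 348 with water. Of the fentanyl libraries 3 lay below all water libraries, and the other 2 were above water replicate 2. In this comparison the log2 difference was -0.96 (SE 0.59, edgeR adjusted p = 0.272). Ddc differed by -0.12 in females (SE 0.30, adjusted p = 0.895) and -0.53 in males (SE 0.32, edgeR adjusted p = 0.26). Its male values were 272, 356, 312, 107.5 and 179 CPM with fentanyl and 447.5, 369.5, 276 and 355 with water.

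Of the transporters, neither passed. Slc6a3 averaged 352 ± 133 CPM (SD, n = 5) in fentanyl and 485 ± 253.5 (n = 5) in water females, a log2 difference of -0.47 (SE 0.62, edgeR adjusted p = 0.78). In males it was 284 ± 213 (n = 5) against 443 ± 137 (n = 4), a difference of -0.62 (SE 0.65, edgeR adjusted p = 0.55). Slc18a2 differed by 0.08 in females (SE 0.33, adjusted p = 0.939) and by -0.21 in males (SE 0.35, edgeR adjusted p = 0.73), with ranges of 215 to 533 against 329 to 564 CPM in females and 93.9 to 436 against 257 to 449 in males. Aldh1a1 had the smallest standard errors of the members, and differed by 0.08 in females (SE 0.18, adjusted p = 0.886) and 0.01 in males (SE 0.19, edgeR adjusted p = 0.98).

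Among the transcription factors, Lmx1b and En1 had an unadjusted p under 0.05 in males. Lmx1b in males was 13.9, 32.4, 21.45, 6.50 and 23.1 CPM with fentanyl and 33.0, 28.7, 27.2 and 38.8 with water, so that 4 of 5 fentanyl libraries lay below all water libraries. The log2 difference was -0.69 (SE 0.32, edgeR adjusted p = 0.134), and without male fentanyl 2 it was -0.94 with an adjusted p of 0.039. En1 was 18.75, 28.6, 34.3, 16.8 and 17.9 CPM with fentanyl and 54.4, 36.9, 33.2 and 41.4 with water. Only fentanyl replicate 3 and water replicate 4 crossed, and the difference was -0.80 (SE 0.38, edgeR adjusted p = 0.144).

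Pitx3 had the largest estimate, with 0.3205, 2.94, 2.96, 0.8645 and 2.14 CPM in fentanyl males and 5.64, 2.32, 3.85 and 3.48 in water males. Water replicate 2 lay within the fentanyl range and the other 3 above it. The log2 difference was -1.03 (SE 0.55, edgeR adjusted p = 0.201) in males, -0.58 (SE 0.52, adjusted p = 0.657) in females and -0.81 (SE 0.38, edgeR adjusted p = 0.14) with the sexes averaged, where leaving out female water 1 gave -0.94 and an adjusted p of 0.0429. At 68.3%, Pitx3 had the highest exon GC content of the members. With a correction for GC content in each library, the male differences became -0.43 for Pitx3 (edgeR adjusted p = 0.719), -0.41 for Lmx1b (adjusted p = 0.525), -0.53 for En1 and -0.82 for Th. Foxa2 and Nr4a2 differed by -0.45 (SE 0.62, adjusted p = 0.663) and -0.19 (SE 0.59, adjusted p = 0.864) in males. In females Foxa2, Nr4a2, Lmx1b and En1 differed by -0.37, 0.03, -0.08 and -0.28, with edgeR adjusted p from 0.769 to 0.987.

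**Figure D5:**
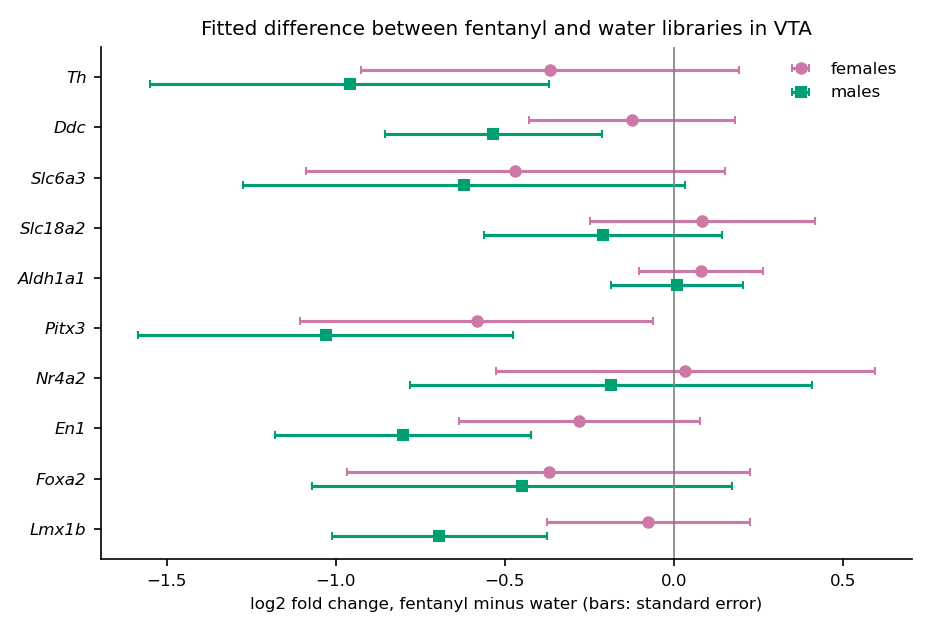
Log2 fold change of each member between fentanyl and water libraries of VTA in females and in males (points, with bars of 1 standard error from edgeR). None passed the test, and the male estimates run from -1.03 for Pitx3 to 0.01 for Aldh1a1.

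Neither the effect of fentanyl by sex nor the sex of water mice separated the members. For the male minus female effect all 10 estimates were below 0 (median -0.35, all genes 0.00), and the smallest adjusted p was 0.581. In water libraries, males and females differed by -0.22 to 0.39, with a smallest edgeR adjusted p of 0.843, where 0.0504% of genes were called. No member separated fentanyl from water without overlap in VTA, where 1.78% of the 15541 genes with a mean of at least 1 CPM did in females and 27.4% of 15503 in males.

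The related lists gave 2 calls in VTA males, where 22% of all genes were called. Spr, sepiapterin reductase, the last enzyme of tetrahydrobiopterin synthesis, fell by 0.32 in males (log2; SE 0.11, edgeR adjusted p = 0.0362), from 35.0, 35.6, 36.55 and 35.5 CPM in water to 24.8, 28.8, 28.05, 32.4 and 24.5 with fentanyl. The groups did not overlap, as for 27.4% of the 15503 genes with a mean of at least 1 CPM in VTA males. The call ended when any 1 of 8 of the 19 VTA libraries was left out (largest edgeR adjusted p 0.0919). With the sexes averaged it fell by 0.27 (adjusted p = 0.0133). Aldh2, the mitochondrial aldehyde dehydrogenase, fell by 0.29 (SE 0.08, adjusted p = 0.0137), from 104 to 111 CPM in water to 80.0 to 96.4 with fentanyl. With the correction for GC content neither passed (Spr -0.26, edgeR adjusted p = 0.136, and Aldh2 -0.12, adjusted p = 0.267). With VTA male water 3, the library of few detected genes, kept in the fit, neither call held (edgeR adjusted p 0.1755 for Aldh2 and 0.9996 for Spr).

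The rest of these lists did not pass. Of the 6 cofactor genes (the enzymes and Gchfr) 1 fell and none rose, with a median log2 change of -0.20, and of the 4 breakdown enzymes 1 fell and none rose, with a median of 0.04, beside 0.00 over all genes and 22% of all genes called. Dbh had the smallest p of the breakdown list in females, at 44.2, 3.06, 0.315, 0 and 0 CPM in water and 0.0255, 0, 0, 0 and 0.0328 with fentanyl, where 3 counts stand for 0.0708 to 0.11 CPM. Only female water 1, 2 and 3 were above that level, and Dbh did not pass (edgeR adjusted p = 0.247, and 0.4205 for the male minus female effect). None of the 5 other transcription factors passed, the smallest p in males being that of En2 (-0.68, edgeR adjusted p = 0.0863) and in females that of Otx2 (0.25, adjusted p = 0.771). None of the 11 genes tested among those high in dopamine neurons passed in males (median -0.50) or females (median -0.25), where Sncg had the smallest p in females (-0.60, edgeR adjusted p = 0.333) and Slc10a4 in males (-0.65, adjusted p = 0.168).

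Outside VTA, not all members had enough counts to be tested: 7 in VBT and 6 each in S1, PrL and NAc. None passed in any treatment or sex comparison there. The shares of all genes called in females, in males and with the sexes averaged were 0%, 0% and 0% in VBT, 0.142%, 0% and 1.03% in S1, 0.021%, 0% and 0.697% in PrL and 0%, 0.662% and 0% in NAc. Where these are 0, between 1410 and 2341 genes had an unadjusted p under 0.05, and DESeq2 called 0 to 108 genes. For the male minus female effect of fentanyl, edgeR called 0% in each of VBT, S1, PrL and NAc, where 1520, 817, 494 and 2964 genes had an unadjusted p under 0.05 and DESeq2 called 109, 0, 0 and 462. The comparison of males with females in water libraries called 0.0898%, 0.0557%, 0.0472% and 0.0513% of genes in VBT, S1, PrL and NAc. Members with an unadjusted p under 0.05 are given next.

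In S1, Nr4a2 was 49.6, 85.4, 98.3, 61.35 and 77.4 CPM in fentanyl males and 31.6, 36.3, 64.7 and 31.5 in water males. All fentanyl libraries but replicates 1 and 4 lay above every water library. Fentanyl minus water was 0.88 (SE 0.35, edgeR adjusted p = 0.67), and 0.69 (SE 0.24, adjusted p = 0.169) with the sexes averaged. Other markers of deep cortical layers and claustrum (Ntng2, Gnb4 and Cplx3) summed to 114.5 ± 30.2 CPM (SD, n = 5) in these fentanyl males and 97.7 ± 18.7 (n = 4) in water males, and to 116 ± 42.3 and 96.3 ± 13.2 (n = 5 each) in females. The part of the cortical layers sampled in the Nr4a2 values was not tested. Th in S1, at 9 to 44 counts a library, differed by 0.93 in males (SE 0.39, edgeR adjusted p = 0.678) and 0.69 with the sexes averaged (adjusted p = 0.208), and Lmx1b in females by 1.30 (adjusted p = 0.298), at 1 to 19 counts.

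In PrL, Th was 1.02, 1.73, 2.03, 1.13 and 1.59 CPM in fentanyl males and 1.90, 0.838, 60.9, 7.93 and 2.69 in water males. The high values were those of the libraries with olfactory bulb markers. The log2 difference was -3.24 (SE 1.22, edgeR adjusted p = 0.359) with them and -0.28 without the 3. With the sexes averaged, DESeq2 called 778 genes and edgeR 133. The Th difference was then -2.57 with the 3 libraries (edgeR adjusted p = 0.127, DESeq2 adjusted p = 0.0218) and 0.30 without them. Slc6a3 in males turned from -1.99 (edgeR adjusted p = 0.392) to 1.16 without them, and between the sexes of water mice from 2.01 (adjusted p = 0.999) to -0.59. Nr4a2 in PrL females was 17.6, 4.895, 8.985, 10.3 and 8.82 CPM with fentanyl and 5.02, 4.605, 7.66, 5.07 and 9.39 with water, with overlap. The difference was 0.70 (SE 0.32, edgeR adjusted p = 0.511), the male minus female effect -1.11 (adjusted p = 0.999) and the sex difference in water mice 0.72 (adjusted p = 0.999).

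In VBT, Lmx1b in females was 0.129, 1.94, 0.379, 0.299 and 0.134 CPM with fentanyl and 0.0487, 0.0224, 0.0826, 0.109 and 0.0257 with water, which is 5 to 65 counts against 1 to 4. The groups did not overlap, as for 1.99% of all genes with a mean of at least 0.1 CPM in these libraries. Fentanyl minus water was 3.21 (SE 0.93, edgeR adjusted p = 0.434), and 1.95 without female fentanyl 2. The male minus female effect was -4.20 (edgeR adjusted p = 0.328), and the sex difference in water mice 2.41 (adjusted p = 0.57). Slc6a3 in VBT had a male minus female effect of -2.73 (edgeR adjusted p = 0.58), which was -1.43 without female fentanyl 1, at 1.52 CPM. The highest Th (6.84 CPM) and Ddc (23.0 CPM) of VBT were both in male water 3, which had the lowest sum of thalamus markers, at 1007 CPM against 1172 to 3102 in the other 19.

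In NAc, 2 members had an unadjusted p under 0.05, both between the sexes of water mice, and neither passed. Slc18a2 was 4.38, 1.38, 4.53, 1.94 and 3.92 CPM in males and 0.637, 1.51, 1.502, 2.64 and 0.838 in females, with overlap (log2 difference 1.14, SE 0.46, edgeR adjusted p = 0.391). Aldh1a1 was 8.165, 23.3, 14.8, 14.5 and 9.71 CPM in males and 32.7, 31.4, 14.5, 19.4 and 37.8 in females, with overlap (-0.98, SE 0.32, edgeR adjusted p = 0.322). The members with a mean of at least 1 CPM, 4 in VBT and PrL, 3 in S1 and 5 in NAc, never separated fentanyl from water without overlap, where the shares of all such genes that did were 2.22% in females and 0.907% in males of VBT, 4.92% and 1.63% of S1, 2.31% and 2.2% of PrL and 0.729% and 3.96% of NAc.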

How the data were processed

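Each library came with a table of whole-number counts per Ensembl gene, which the authors deposited unnormalized; the submitters' processing notes name HTSeq and build GRCm38, and the aligner, the annotation release, the strand setting and the versions are not given in the sources used here. Rows that name no gene were left out of totals. Symbols came from GENCODE M21 (55154 of 55335 identifiers matched), promoter sequences from RefSeq (GRCm38.p6).

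CPM were counts divided by a library's total in genes, times 1000000. Differences were fitted per region with edgeR 4.0.16 (R 4.3.3) by its quasi-likelihood test with TMM scaling and a filter on low counts, over all genes, with 1 coefficient per group of sex and treatment; regions were compared in 1 fit of the water libraries. A gene was called at a Benjamini-Hochberg adjusted p under 0.05. The filter kept 18923 to 19822 genes. DESeq2 1.42.0 served as an alternative, beside other scalings and filters, offsets for GC content and length, a covariate for the share of reads outside exons, a block for replicate number, and leaving out single libraries. The fits were tested on simulated data in which 200 genes were changed. Correlations used log2(CPM + 1) and a pseudocount of 0.1 as an alternative. VTA male water 3, with under 10000 genes detected, was left out.

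All 10 members were named in every region. Outside VTA a member was named in a comparison where its unadjusted p was under 0.05, and from related lists a gene was named where it was called in VTA or, in a list with no call, had its smallest p (Dbh, Otx2 and Slc10a4 were added after their values were seen); values of r were also given for the reported genes of these lists. The members and lists were chosen with earlier results of these data known. A few genes of these lists are not reported here and entered no list count or marker sum. Counting intervals and floors cover counting error only.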

Additional observations from a re-analysis of the deposited data

Results flagged for a closer look

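In groups of 4 or 5 libraries, 13 of 105 sets of member values had a highest or lowest library set apart from the rest by more than Dixon's critical value, and chance flags about 1 in 20 such sets. In VTA there was 1: Slc18a2 in female fentanyl 3, at 215 CPM, was the lowest of its group, the next being 453. In PrL, Th in male water 3 (60.9 CPM, next 7.93) and female water 5 (29.5, next 1.62), and Ddc (6.38, next 3.84) and Slc18a2 (4.62, next 0.422) in male water 3 were set apart, in the libraries with high olfactory bulb markers. Th in NAc male water 2 (13.8 CPM, next 7.61) stood beside an olfactory bulb marker sum of 52.1 CPM, the highest of NAc.

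Ddc was set apart in VBT male water 3 (23.0 CPM, next 14.8), the library with the lowest thalamus markers of VBT, and in S1 male fentanyl 2 (8.46, next 5.05). Slc18a2 was highest in NAc male fentanyl 5 (3.08 CPM, next 1.63). Aldh1a1 was lowest in S1 female fentanyl 2 (49.6 CPM, next 71.4) and highest in PrL male fentanyl 5 (16.2, next 9.40). Nr4a2 was highest in S1 male water 4 (64.7 CPM, next 36.3) and in PrL male fentanyl 1 (11.5, next 7.46).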

How the results depend on the processing

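No alternative made a member pass between fentanyl and water except those named here. The fits without the 3 PrL libraries of high olfactory bulb markers, without the 2 female water VTA libraries of high GC trend, and within the libraries of low or high GC trend were chosen after seeing the data.

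In VTA females, without the 2 libraries of high GC trend the log2 difference was 0.000464 for Ddc, -0.02564 for Nr4a2, 0.10 for En1 and 0.01694 for Foxa2, and with offsets for GC content as well -0.03632 for Nr4a2, 0.12 for En1, 0.03452 for Foxa2 and 0.01001 for Lmx1b. Lmx1b in females was 0.04582 with GC offsets alone. In males Aldh1a1 was -0.001137 with no filter, -0.003683 with length offsets, -0.114 with GC offsets and -0.115 with these and without the 2 libraries, and Nr4a2 0.05189 with the share outside exons as a covariate. With the sexes averaged Aldh1a1 was -0.04362 with GC offsets and Nr4a2 0.1572 with the covariate, and for the male minus female effect Foxa2 was 0.03521 with GC offsets. With all libraries kept, Slc18a2 was 0.00719 and Nr4a2 0.1295 in males, 0.04383 and 0.08118 with the sexes averaged, and the male minus female effect was 0.1652 for Slc6a3, 0.1301 for Aldh1a1, 0.09665 for Nr4a2 and 0.2301 for Foxa2. Nr4a2 between VTA and NAc was then 0.83 (edgeR adjusted p = 0.103).

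Genes called in VTA females were 88 by DESeq2 and 155 with the covariate. In males, where 4355 were called, the count was 796 with GC offsets, 42 with all libraries kept and 1047 with GC offsets and without the 2 libraries. With the sexes averaged it was 922, 60 and 355 in these fits, and 2489 without the 2 libraries alone. The cause was not tested.

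Leaving out single libraries gave, in VTA females, -0.25 to 0.0621 for Ddc, -0.06272 to 0.19 for Aldh1a1, -0.24 to 0.23 for Nr4a2 and -0.23 to 0.04037 for Lmx1b, and 0 to 1 genes called. In males it gave -0.37 to 0.01209 for Slc18a2, -0.06615 to 0.15 for Aldh1a1, -0.46 to 0.09397 for Nr4a2, 0 to 1 members called (Lmx1b) and 2660 to 4664 genes called, the lowest without male water 4. With the sexes averaged it gave -0.14 to 0.04641 for Slc18a2, -0.02933 to 0.11 for Aldh1a1, -0.22 to 0.06334 for Nr4a2 and 0 to 1 members called (Pitx3). The male minus female effect ran from -0.55 to 0.14 for Slc6a3, -0.18 to 0.06993 for Aldh1a1, -0.49 to 0.06127 for Nr4a2 and -0.35 to 0.23 for Foxa2.

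In PrL without the 3 libraries, Slc6a3 was 1.16 in males and -0.59 between the sexes of water mice, and Th 0.30 with the sexes averaged, with 0 members called. With all PrL libraries, that Th difference was 0.82 with the covariate. DESeq2 then called 1 member, Th, among 778 genes called, where edgeR called 133 genes and no member. Among regions, without the 3 libraries, VBT minus PrL was 1.27 for Th, 0.88 for Slc6a3 and 1.20 for Slc18a2, and PrL minus NAc -2.25 for Th, with 5 members called. Leaving out single libraries gave -0.78 to 0.77 for Th between PrL and NAc, the lowest without PrL female water 5, and -0.62 to 0.63 for Slc18a2 between VBT and PrL, the highest without PrL male water 3. Of the correlations, 28 pairs passed within the 13 libraries of low GC trend, at a median r of 0.7186. Within the 6 libraries of high GC trend 0 passed, at a median r of 0.5985. These 6 were 4 male water and 2 female water libraries, which allow few distinct shuffles within groups, so that hardly any pair could pass. In them r was -0.03851 for Ddc with Nr4a2 and -0.1011 for Slc18a2 with Nr4a2. Slc18a2 with Foxa2 was 0.01375 with the GC trend regressed out, 0.2699 with all libraries kept, and -0.22 to 0.27 leaving out single libraries.

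Whether replicate numbers pair the samples is not given by the labels and was not settled here. Same-numbered libraries of fentanyl and water had correlations of -0.43 to 0.45 over 48 pairs (median 0.05, 16 above 0.1). Those of 2 regions had -0.24 to 0.29 over 92 pairs (median 0.06, 38 above 0.1). Differently numbered libraries are not set beside them here, and the region tests treated all libraries as independent. With a replicate block, 3749 genes were called in VTA males and 4219 with the sexes averaged, and 0 members. Aldh1a1 in males was -0.08641, and Th between PrL and NAc -0.3297. With the block and GC offsets, 265 and 517 genes were called, Lmx1b in females was 0.06687, and Aldh1a1 was -0.2133 in males and -0.07404 with the sexes averaged.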
